A study of Mus musculus with 8 samples.

Results

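The fatty acid genes of the mouse heart described here were 37 genes for the uptake, storage and oxidation of fatty acids. They were taken by gene symbol from a table of 23045 genes, and 37 of 37 were found in it. Heart RNA of 4 WT and 4 Mettl3 KO mice had been sequenced by the authors to examine polyA site use, and is compared here for gene levels. Mettl3 is the catalytic subunit of the m6A writer complex, which methylates adenosines in RNA, and had been deleted in heart muscle cells. WT hearts carried Mettl3lox/lox alone. Mettl3 KO hearts carried Mettl3lox/lox together with alphaMHC-MerCreMer, a Cre recombinase that is made under the αMHC promoter of cardiomyocytes and has to be activated by tamoxifen. Per the methods of the study, mice of both genotypes received 100 µg tamoxifen per g of body weight on 7 consecutive days, at 10 to 16 weeks of age. The age at which these hearts were taken is not given in the sources used here. Control mice without MerCreMer do not account for effects of the recombinase itself, and heart tissue also holds cells in which Mettl3 is intact.

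The heart covers most of its need for ATP by oxidation of fatty acids. These are released from circulating lipoproteins at the vessel wall, taken up, bound to CoA, and either stored as triglyceride in droplets or passed into mitochondria by the carnitine shuttle. β-Oxidation then shortens the acyl chain in a cycle of dehydrogenase, hydratase, dehydrogenase and thiolase steps, and the electron transfer flavoprotein carries the electrons of the first step into the respiratory chain.

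Mettl3 had 105, 133, 118 and 107 normalized read counts in WT libraries 1 to 4 and 74, 68, 69 and 78 in Mettl3 KO libraries 1 to 4. Mettl3 was thus lower in every Mettl3 KO library, with a log2 fold change of -0.67 (limma adjusted p = 0.000184, SE 0.10). Esr1, whose sequence is part of MerCreMer, had 13 to 20 in WT and 693 to 851 in Mettl3 KO libraries, so both genes followed the labels. Normalized read counts summed to 2839589 to 2916986 per library, from a recovered depth of 2631905 to 3061260 reads. Over 10 cardiomyocyte markers the sum was 94992 to 101633 in WT and 92289 to 103097 in Mettl3 KO hearts, and 1 of them (Ryr2) was lower. Fibroblast markers summed to 3648 to 4172 in WT and 4711 to 5671 in Mettl3 KO hearts, where 7 of 8 were higher. Endothelial markers summed to 5172 to 5361 in WT and 4466 to 4867 in Mettl3 KO hearts, where 4 of 8 were lower. Of 4 atrial markers 3 were higher, and summed over these 3 (Myl7, Bmp10 and Sln) they gave 38, 27, 0 and 27 in WT libraries 1 to 4 beside 33, 294, 277 and 541 in Mettl3 KO libraries 1 to 4. The remaining marker, Kcnj3, was at 532 to 616 in WT and 438 to 572 in Mettl3 KO hearts, which puts the sum over all 4 at 570 to 629 and 471 to 1106. An index of these 4 markers, the mean of log2(value + 1), was 4.38, 4.13, 2.32 and 4.03 in WT libraries 1 to 4. In Mettl3 KO libraries 1 to 4 it was 4.21, 6.99, 6.97 and 7.64. Only Mettl3 KO library 1 lay within the WT range, so a fit with this index as covariate can hardly separate it from the genotype. The labels do not say which chambers of the heart were taken, so that a share of atrial tissue and the genotype cannot be told apart in the results that move with these markers. Bmp10, a gene of atrial muscle, was at 0 for every WT library as well as Mettl3 KO library 1 but reached 195, 158 and 358 in Mettl3 KO libraries 2 to 4. In bulk libraries such as these, fewer cells of a type and less RNA per cell cannot be told apart.

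Of the fatty acid genes, Mlycd, which removes malonyl-CoA, was higher in Mettl3 KO hearts, and Lpl, the lipase that frees fatty acids from lipoproteins, was slightly lower. Etfb at -0.33 and Acot1 at -0.34 lay farther from 0 on the log2 scale than Lpl at -0.17, but did not pass the test, and nor did Ucp3 at 0.19 in the other direction. The 37 genes were all tested, with 1 called higher and 1 called lower (limma adjusted p under 0.05), together 5.41% of them. Over all 20313 genes tested, 7.91% were called, 4.72% higher and 3.19% lower. Among the 13795 genes with a mean of at least 10, where all of the 37 lie, 12.2% were called. The median log2 fold change of the 37 genes was -0.00, with a range of -0.34 to 0.39, beside a median of -0.01 over all genes tested. Of the 37 genes, 18 had a positive and 19 a negative log2 fold change. WT and Mettl3 KO values were separated without overlap in 2 of the 37 genes (5.41%), whereas this was so for 11.5% of all genes tested. An unadjusted p under 0.05 was reached by 4 of the 37 genes and by 20.6% of all genes. The 95% interval of the fold change lay between 1.2-fold lower and 1.2-fold higher for 26 of the 37 genes, and within 1.5-fold for 34. Duplicate reads had been removed, which can narrow the fold changes and intervals of abundant genes. Lpl, for example, had a mean of 3065 in WT hearts, with 4115 bases in its longest protein-coding transcript. The size of this effect was not tested. Summed over the 37 genes, normalized read counts were 23333 to 26000 in WT and 23246 to 25482 in Mettl3 KO libraries.

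**Figure D1:**
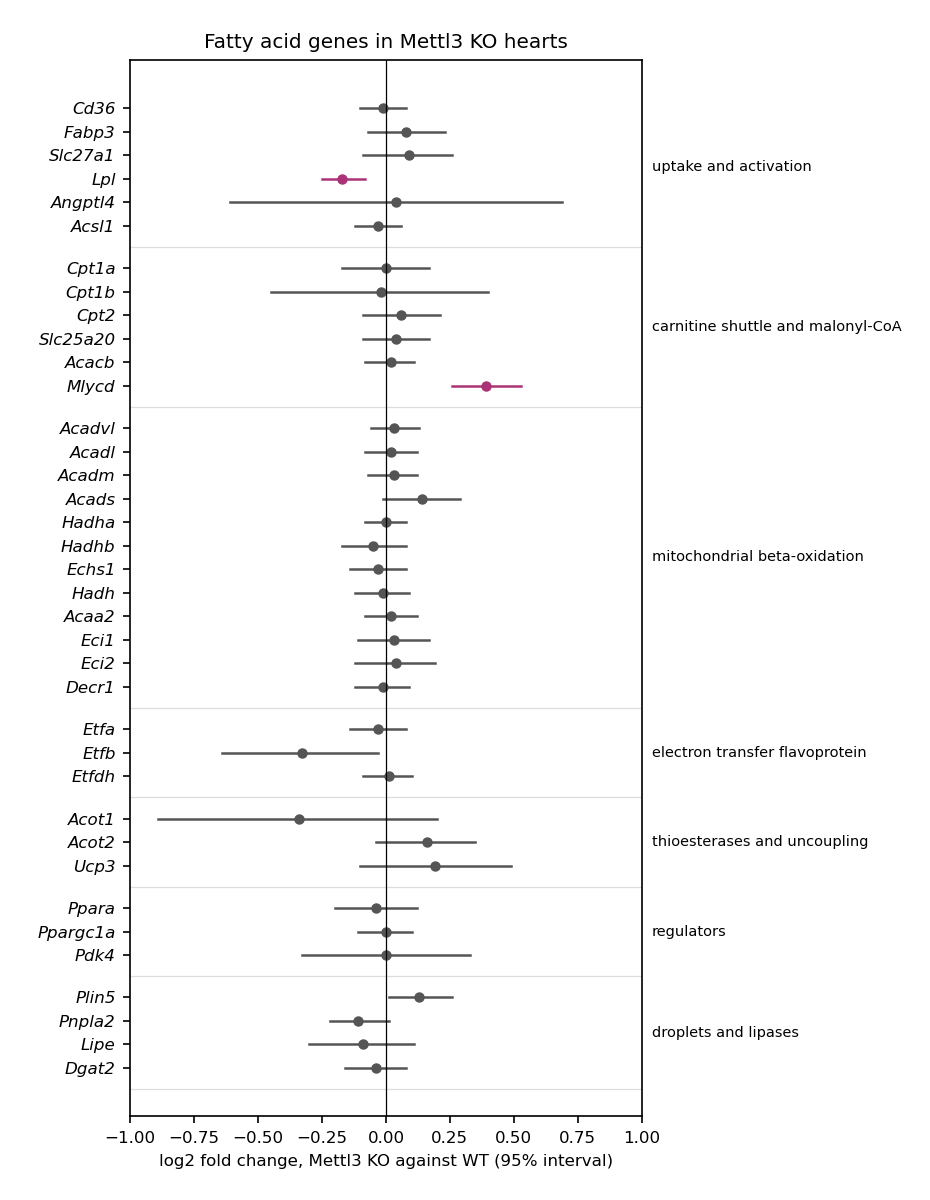
Log2 fold change of each of the 37 fatty acid genes in Mettl3 KO against WT hearts (4 libraries each), grouped by role, with bars for the 95% interval of the limma fit and colour for an adjusted p under 0.05. Mlycd at 0.39 and Lpl at -0.17 are coloured, and the 12 genes of mitochondrial β-oxidation lie between -0.05 and 0.14.

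Malonyl-CoA blocks the entry of long-chain fatty acids into mitochondria by inhibition of carnitine palmitoyltransferase 1. Mlycd (ENSMUSG00000074064, chromosome 8, 120121617 to 120137841, plus strand, mm39) encodes malonyl-CoA decarboxylase, which degrades this inhibitor. It had 211, 236, 226 and 236 normalized read counts in WT libraries 1 to 4 and 286, 318, 301 and 289 in Mettl3 KO libraries 1 to 4. The lowest Mettl3 KO library was above the highest WT library. The mean was 227 ± 11.8 in WT and 298 ± 14.5 in Mettl3 KO hearts (SD, n = 4), an increase of 0.39 on the log2 scale (SE 0.06, 95% interval 0.26 to 0.53, limma adjusted p = 0.000357). Mlycd was called in 19 of 19 alternative analyses, at 0.34 to 0.41.

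Acacb, the acetyl-CoA carboxylase at the mitochondrial surface that makes malonyl-CoA, had 1599 to 1838 normalized read counts in WT and 1599 to 1850 in Mettl3 KO libraries. Its log2 fold change was 0.02 (95% interval -0.08 to 0.11). Acacb did not pass the test, while RNA of Mlycd, whose enzyme removes malonyl-CoA, was higher. The level of malonyl-CoA was not measured. Cpt1a and Cpt1b are the forms of carnitine palmitoyltransferase 1 found in heart, the latter being typical of muscle. Cpt1a (ENSMUSG00000024900, chromosome 19, 3372334 to 3435733, plus strand) showed 334, 321, 291 and 364 for WT against 269, 352, 343 and 349 in Mettl3 KO libraries 1 to 4. The groups overlapped, and Mettl3 KO library 1 was the lowest of all 8. The log2 fold change of Cpt1a was -0.00 (SE 0.08, 95% interval -0.17 to 0.17). With an index of atrial markers as covariate it was -0.32 (limma adjusted p = 0.0427), and in 18 other alternatives it was not called. Mettl3 KO library 1, where Cpt1a was low, was also the Mettl3 KO library with Bmp10 at 0.

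Cpt1b was at 26, 32, 33 and 48 for WT against 23, 41, 32 and 41 in Mettl3 KO libraries. The groups overlapped, with a log2 fold change of -0.02 (95% interval -0.45 to 0.40). They are uncertain as a level, because 81.4% of the exon bases of Cpt1b are shared with another gene model on the same strand, Gm44502, and reads that overlap several genes had been left out. Slc25a20, the carnitine-acylcarnitine translocase, and Cpt2, which reforms acyl-CoA in the matrix, differed by 0.04 (95% interval -0.09 to 0.17) and 0.06 (95% interval -0.09 to 0.21) on the log2 scale. With the index of atrial markers as covariate Cpt2 was at 0.30 and was not called (limma adjusted p = 0.0516).

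**Figure D2:**
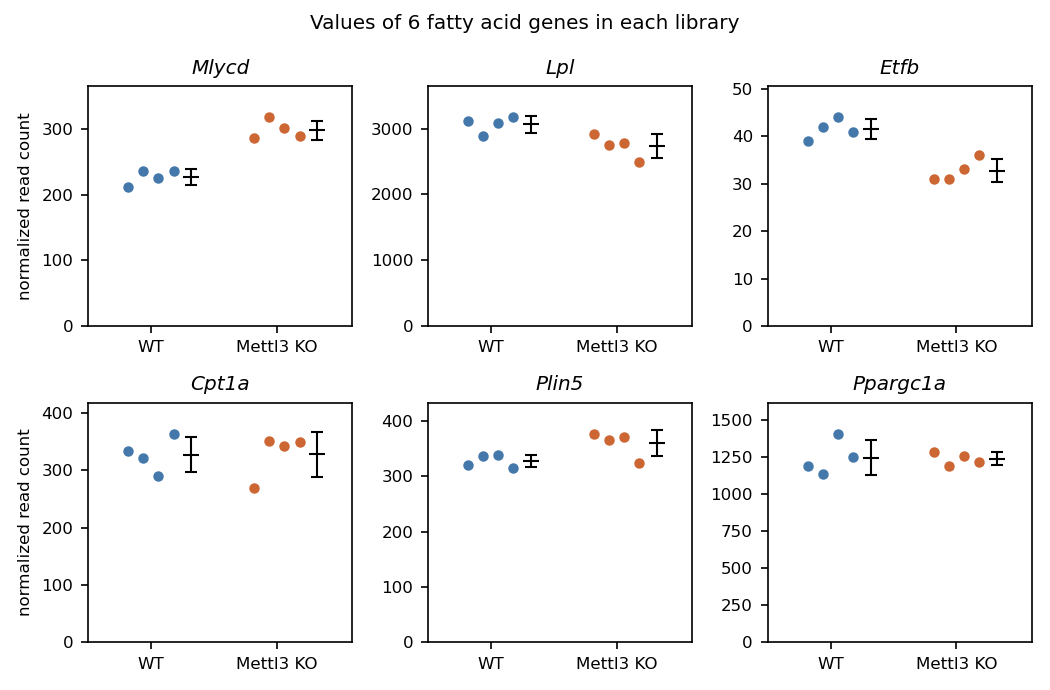
Normalized read count of 6 fatty acid genes in each library, with a point per heart (4 WT, 4 Mettl3 KO) and the mean ± SD beside the points. Mlycd and Etfb do not overlap between the genotypes, whereas Lpl, Cpt1a, Plin5 and Ppargc1a do.

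Lipoprotein lipase is made in muscle and fat cells and acts on the vessel wall. Lpl (ENSMUSG00000015568, chromosome 8, 69333143 to 69360100, plus strand) had 3116, 2882, 3090 and 3173 normalized read counts in WT libraries 1 to 4 and 2923, 2746, 2779 and 2494 in Mettl3 KO libraries 1 to 4. Mettl3 KO libraries 2 to 4 were below all WT libraries, and library 1 was above WT library 2. The log2 fold change of Lpl was -0.17 (SE 0.04, 95% interval -0.25 to -0.08, limma adjusted p = 0.0160), from a mean of 3065 ± 127 to 2736 ± 178 (SD, n = 4). The call was lost in 6 of 19 alternatives. The log2 fold change was -0.16 without WT replicate 1 (limma adjusted p = 0.0602), -0.15 without WT replicate 4 (0.0730), -0.17 without Mettl3 KO replicate 2 (0.0524) and -0.12 without Mettl3 KO replicate 4 (0.0664). With the index of atrial markers as covariate the log2 fold change was -0.06 (limma adjusted p = 0.651). This index largely went with the genotype, so the part of each cannot be told apart here. Markers of white adipocytes summed to 2 to 29 over 5 genes in WT and 16 to 41 in Mettl3 KO hearts. Adipoq and Plin1 were at most 4 in any library, and Car3 reached 21 in WT and 28 in Mettl3 KO libraries. All 5 had a positive log2 fold change (0.44 to 1.33) and 0 were called by limma, with 2 (Plin1 and Car3) at an unadjusted p under 0.05. Their part in the result for Lpl was not tested.

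The remaining genes of uptake and activation did not pass the test. Angptl4, a secreted inhibitor of lipoprotein lipase, had 17 to 54 in WT and 14 to 43 in Mettl3 KO libraries, with the widest interval of the 37 genes (log2 fold change 0.04, 95% interval -0.61 to 0.69). Cd36, the fatty acid translocase of the plasma membrane, had 1632 to 1780 in WT and 1593 to 1785 in Mettl3 KO libraries (log2 fold change -0.01, 95% interval -0.10 to 0.08). Slc27a1, a fatty acid transport protein with acyl-CoA synthetase activity, differed by 0.09 (95% interval -0.09 to 0.26). Fabp3, the fatty acid binding protein of the cardiomyocyte cytosol, differed by 0.08 (95% interval -0.07 to 0.23). Acsl1, the main long-chain acyl-CoA synthetase of heart, differed by -0.03 (95% interval -0.12 to 0.06). For Cd36, Fabp3 and Acsl1 a change beyond 1.2-fold in either direction lay outside the interval.

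Of the 12 genes of mitochondrial β-oxidation, 0 were called by limma and 0 had an unadjusted p under 0.05. Over all genes tested these shares were 7.91% and 20.6%. With only 12 genes, a count of 0 called cannot be told apart from the share of all genes. Voom on the recovered reads called 0 of the 12 as well. Their median log2 fold change was 0.02. Acadl, the long-chain acyl-CoA dehydrogenase, was at 1195, 1171, 1180 and 1317 for WT against 1293, 1239, 1263 and 1126 in Mettl3 KO libraries. The genotypes overlapped, with the lowest value in a Mettl3 KO and the highest in a WT library. Acadvl, Acadm and Acads, the dehydrogenases for very long, medium and short chains, differed by 0.03 (95% interval -0.06 to 0.13), 0.03 (95% interval -0.07 to 0.12) and 0.14 (95% interval -0.01 to 0.29). Acads was the largest of the 12 differences, with 206 to 245 in WT and 221 to 253 in Mettl3 KO libraries (limma adjusted p = 0.280). With the index of atrial markers as covariate Acads was at 0.31 and was not called (limma adjusted p = 0.0878).

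Hadha and Hadhb encode the α and β subunits of the mitochondrial trifunctional protein, which carries out the later steps for long chains. Hadha was at 1639, 1632, 1706 and 1780 for WT against 1692, 1675, 1756 and 1622 in Mettl3 KO libraries. The groups overlapped, with a log2 fold change of -0.00 (95% interval -0.08 to 0.08). Hadhb differed by -0.05 (95% interval -0.17 to 0.08). Echs1, Hadh and Acaa2, the hydratase, hydroxyacyl-CoA dehydrogenase and thiolase for shorter chains, differed by -0.03, -0.01 and 0.02. Eci1, Eci2 and Decr1, the auxiliary enzymes for unsaturated fatty acids, differed by 0.03, 0.04 and -0.01. Among these 6 genes the interval lay between -0.14 (Echs1) and 0.19 (Eci2).

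The electron transfer flavoprotein is a dimer of the products of Etfa and Etfb, and Etfdh encodes the dehydrogenase that passes its electrons to ubiquinone. Etfb (ENSMUSG00000004610, chromosome 7, 43093507 to 43107224, plus strand) showed 39, 42, 44 and 41 for WT against 31, 31, 33 and 36 in Mettl3 KO libraries 1 to 4. Every Mettl3 KO library was below every WT library. The log2 fold change was -0.33 (SE 0.15, 95% interval -0.64 to -0.03) and did not pass over all genes (limma adjusted p = 0.196), nor in any of 19 alternatives, where it was -0.38 to -0.30 (limma adjusted p 0.0827 to 0.455). Of the exon bases of Etfb in GENCODE M21, 58.2% are shared with the gene models Gm45233 and Mir7051, so that its low count can leave out part of its reads. Etfa, its partner in the dimer, had 489 to 538 in WT and 474 to 524 in Mettl3 KO libraries and differed by -0.03 (95% interval -0.14 to 0.08). Etfdh differed by 0.01 (95% interval -0.09 to 0.10).

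Acot1 and Acot2, neighbouring and nearly identical genes for cytosolic and mitochondrial acyl-CoA thioesterases, split CoA from the acyl chain. Acot1 had 13 to 28 in WT and 11 to 19 in Mettl3 KO libraries and differed by -0.34 (95% interval -0.89 to 0.20). Acot2 had 147 to 203 and 164 to 204, and differed by 0.16 (95% interval -0.04 to 0.35). Reads that map to several places had been removed, so both levels are uncertain. Ucp3, a mitochondrial carrier of the uncoupling protein family, had 145 to 237 in WT and 168 to 261 in Mettl3 KO libraries, with a log2 fold change of 0.19 (95% interval -0.10 to 0.49, limma adjusted p = 0.508).

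Ppara is the nuclear receptor that drives genes of fatty acid oxidation, Ppargc1a is a coactivator of mitochondrial genes, and Pdk4 is a kinase that shuts off glucose oxidation at pyruvate dehydrogenase. Ppara had 268 to 347 in WT and 261 to 312 in Mettl3 KO libraries (log2 fold change -0.04, 95% interval -0.20 to 0.12). Ppargc1a had 1134 to 1407 and 1188 to 1287, and its log2 fold change of -0.00 had an interval of -0.11 to 0.10. The values of all 3 regulators overlapped between the genotypes. Pdk4 had the same mean in both, 974 ± 274 in WT hearts and 973 ± 259 in Mettl3 KO hearts (SD, n = 4), but with a wide spread between hearts of a genotype.

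None of the 4 genes of droplets and lipases was called. Plin5, the perilipin that couples droplets to mitochondria, was at 320, 336, 338 and 316 for WT against 377, 365, 371 and 325 in Mettl3 KO libraries. Mettl3 KO libraries 1 to 3 were above all WT libraries and library 4 was among them (log2 fold change 0.13, 95% interval 0.01 to 0.26, limma adjusted p = 0.208). Pnpla2, the adipose triglyceride lipase that starts the breakdown of stored triglyceride, had 465 to 505 in WT and 429 to 485 in Mettl3 KO libraries (log2 fold change -0.11, limma adjusted p = 0.273). Lipe, hormone-sensitive lipase, differed by -0.09 (95% interval -0.30 to 0.11). Dgat2, which completes triglyceride synthesis, differed by -0.04 (95% interval -0.16 to 0.08).

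Per kilobase of exon, the abundance of the 37 genes differed widely. The length taken was that of all annotated exons of a gene. A single transcript can be much shorter, with 4115 bases in the longest protein-coding transcript of Lpl beside 10478 exon bases. The order below therefore holds for the exon length only. Duplicate reads had been removed, which limits the level of abundant transcripts on this scale and so the order at its upper end. By exon length, the highest mean normalized read counts per kilobase were those of Acadl at 610, Acaa2 at 493, Cd36 at 481 and Acadvl at 343. The lowest by exon length were Acot1 at 4.37, Angptl4 at 9.50, Cpt1b at 10.2 and Lipe at 29.6. Etfb was at 31.9 beside 274 for Etfa, the other subunit of the same dimer. Acot1, Cpt1b and Etfb are among the genes whose reads could be shared with another gene, as given above. Acot2 was at 81.2, and Cpt1a at 42.9 was above Cpt1b on this scale.

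Most of the 37 genes varied little between hearts of a genotype, with a median coefficient of variation of 5.81% in WT and 5.93% in Mettl3 KO hearts. A few stood apart in both genotypes. Angptl4 varied by 49.2% in WT and 40.4% in Mettl3 KO hearts, Pdk4 by 28.1% and 26.6%, Cpt1b by 26.9% and 25.2%, and Ucp3 by 23.7% and 23.5%. Acot1 varied by 35.2% and 22.4%. Counting error alone gives 22.4% and 26.3% for Acot1, 16.8% and 17.1% for Cpt1b and 17.3% and 17.1% for Angptl4, but 3.17% and 3.21% for Pdk4 and 7.24% and 6.90% for Ucp3. Hadha, for comparison, varied by 4.09% and 3.28%.

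Pdk4 (ENSMUSG00000019577, chromosome 6, 5483351 to 5496309, minus strand) showed 768, 728, 1103 and 1299 normalized read counts for WT against 623, 1227, 1090 and 953 in Mettl3 KO libraries 1 to 4. Angptl4 (ENSMUSG00000002289, chromosome 17, 33992724 to 34000804, minus strand) showed 24, 17, 38 and 54 for WT against 14, 43, 36 and 43 in Mettl3 KO libraries. Ucp3 (ENSMUSG00000032942, chromosome 7, 100122197 to 100135639, plus strand) showed 154, 145, 237 and 210 for WT against 172, 261, 252 and 168 in Mettl3 KO libraries. WT libraries 1 and 2 and Mettl3 KO library 1 were low for each of Pdk4 and Angptl4. Pdk4 was therefore compared with each of the other 36 genes over the 8 libraries. The comparison was chosen after these values were seen, so that its correlations are a description without a test. With Angptl4 Pearson's r was 0.95 and Spearman's rho was 0.90. Without the 2 libraries farthest from the Pdk4 median, WT library 2 and Mettl3 KO library 1, r was 0.87, and with the genotype means removed it was 0.95.

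For 6 further genes r with Pdk4 was 0.75 to 0.83, namely Cpt1b, Slc27a1, Eci1, Ucp3, Etfdh and Hadhb. Over all 36 genes r had a median of 0.41 and a range of -0.19 to 0.95. Without the 2 farthest libraries r was 0.77 for Cpt1b, 0.56 for Slc27a1, 0.95 for Eci1, 0.79 for Ucp3, 0.92 for Etfdh and 0.68 for Hadhb. These 2 libraries weighed heavily on other genes, as r moved from 0.63 to -0.38 for Lipe, from 0.54 to 0.01 for Pnpla2, from 0.43 to -0.21 for Acot1 and from 0.03 to 0.85 for Fabp3. The labels give no batch, day or feeding state by which the hearts could be divided.

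**Figure D3:**
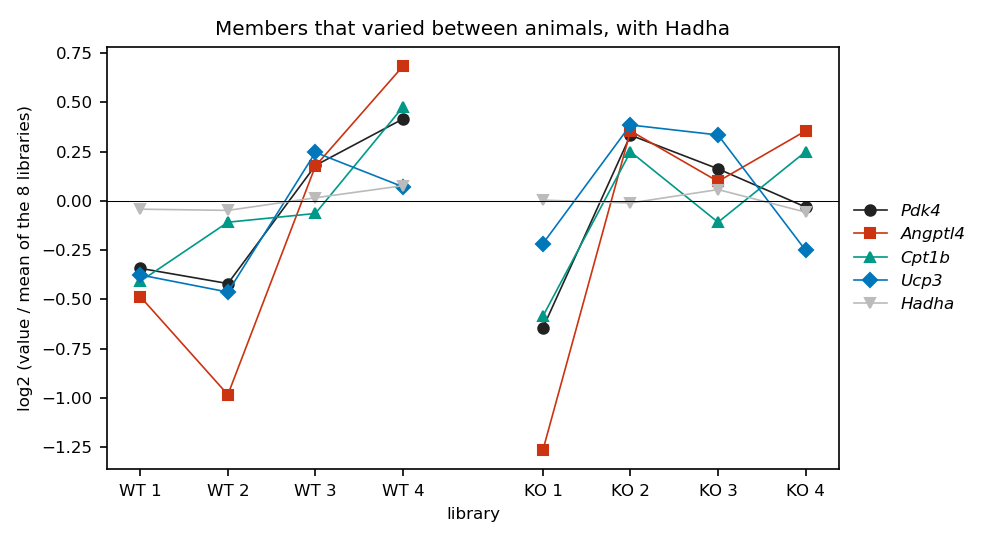
Level of Pdk4, Angptl4, Cpt1b, Ucp3 and Hadha in each of the 8 libraries, as log2 of the value over the gene's mean of all libraries, with lines that join the points of a gene and no order among libraries. Pdk4 and Angptl4 are low in WT libraries 1 and 2 and in Mettl3 KO library 1, whereas Hadha stays near 0.

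RefSeq promoters of GRCm38.p6 were matched for 31 of the 37 genes, not for Lpl, Angptl4, Cpt1b, Decr1, Acaa2 and Dgat2. The sequences before the gene starts are shown for Mlycd, which was higher in Mettl3 KO hearts, and for Pdk4 and Ucp3, which varied between hearts. The 250 bases before the start, written in the direction of transcription, were at chr8:119394644-119394893 (plus strand) for Mlycd, chr6:5496279-5496528 (minus strand) for Pdk4 and chr7:100472741-100472990 (plus strand) for Ucp3. Capitals mark a match to the motif DR1, described next.
Mlycd: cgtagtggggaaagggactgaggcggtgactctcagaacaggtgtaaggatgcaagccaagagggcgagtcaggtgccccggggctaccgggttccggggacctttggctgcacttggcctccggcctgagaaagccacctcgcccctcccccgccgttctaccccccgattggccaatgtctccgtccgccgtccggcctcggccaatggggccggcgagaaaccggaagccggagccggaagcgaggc
Pdk4: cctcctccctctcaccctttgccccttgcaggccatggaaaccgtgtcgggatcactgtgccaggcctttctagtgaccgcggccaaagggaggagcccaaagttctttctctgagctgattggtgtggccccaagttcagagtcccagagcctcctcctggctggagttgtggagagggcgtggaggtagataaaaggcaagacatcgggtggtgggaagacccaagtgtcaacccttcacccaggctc
Ucp3: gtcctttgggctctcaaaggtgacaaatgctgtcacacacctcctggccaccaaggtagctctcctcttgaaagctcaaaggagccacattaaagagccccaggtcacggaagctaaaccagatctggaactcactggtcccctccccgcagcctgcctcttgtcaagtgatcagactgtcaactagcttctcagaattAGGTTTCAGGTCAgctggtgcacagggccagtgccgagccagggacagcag

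PPARα binds DNA with its partner RXR at DR1 elements, a pair of AGGTCA half-sites 1 base apart (AGGTCANAGGTCA). With at most 2 mismatches over the 12 half-site bases and on either strand, a DR1 match was found for 4 of 31 genes (12.9%). These were Cd36, Echs1, Etfa and Ucp3, beside 3.72% of all 27025 genes with a window of this length. A gene with several windows counted if any of them matched, and the 31 genes had 36 windows. In Ucp3 the match lay 51 to 39 bases before the start. The element of estrogen-related receptors, TNAAGGTCA, was searched on both strands without mismatches and may overlap a DR1 half-site. It was found for 0 of 31 genes, beside 1.30% of all genes with a window. The Mlycd window held neither motif and had a GC content of 67.6% with 22 CpG dinucleotides. The Pdk4 window held neither motif as well. A match describes the letters in this window only.

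The motif that METTL3 methylates has GGACT as its most frequent core. In the longest protein-coding transcript of each gene, GGACT occurred at a median of 1.03 per kilobase in the 37 genes (range 0.381 to 3.27) and 1.05 per kilobase in 14322 genes. Mlycd held 2 in 2128 bases, or 0.940 per kilobase, and Lpl held 0.729 per kilobase. Ucp3, at 3.27 per kilobase, was the highest of the 37 and was not called. Methylation itself was not measured in these libraries.

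Lipid genes beyond the 37 were taken from lists by role, and 101 of 107 could be tested. Of these, 13 were higher and 9 lower in Mettl3 KO hearts, together 21.8% beside the 7.91% of all genes, with a median log2 fold change of -0.01. With only genes of a mean of at least 10 in the fit, 24 of 99 (24.2%) were called beside 12.2% of all genes. The lists were chosen with earlier results of these data known. Calls in both directions were found in 4 of the 8 lists. Up to 3 genes per list with the largest changes are given here. In peroxisomal oxidation 2 of 15 were higher, Abcd2, a transporter of very long-chain acyl-CoA, by 0.77 (SE 0.13, limma adjusted p = 0.000667) and Amacr, a racemase for branched acyl chains, by 0.34 (limma adjusted p = 0.0261). Abcd2 had 46 to 61 in WT and 68 to 100 in Mettl3 KO libraries. Of 15 other mitochondrial acyl-CoA enzymes, 3 were higher and 3 lower. Acsm5, a medium-chain acyl-CoA synthetase, was at 32, 23, 33 and 20 for WT against 6, 11, 3 and 7 in Mettl3 KO libraries, and changed by -1.93 on this scale (limma adjusted p = 0.000271, SE 0.31). Acad12, an acyl-CoA dehydrogenase family member, fell from 194 to 216 in WT to 140 to 149 in Mettl3 KO libraries (log2 fold change -0.50, limma adjusted p = 8.26e-05).

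**Figure D4:**
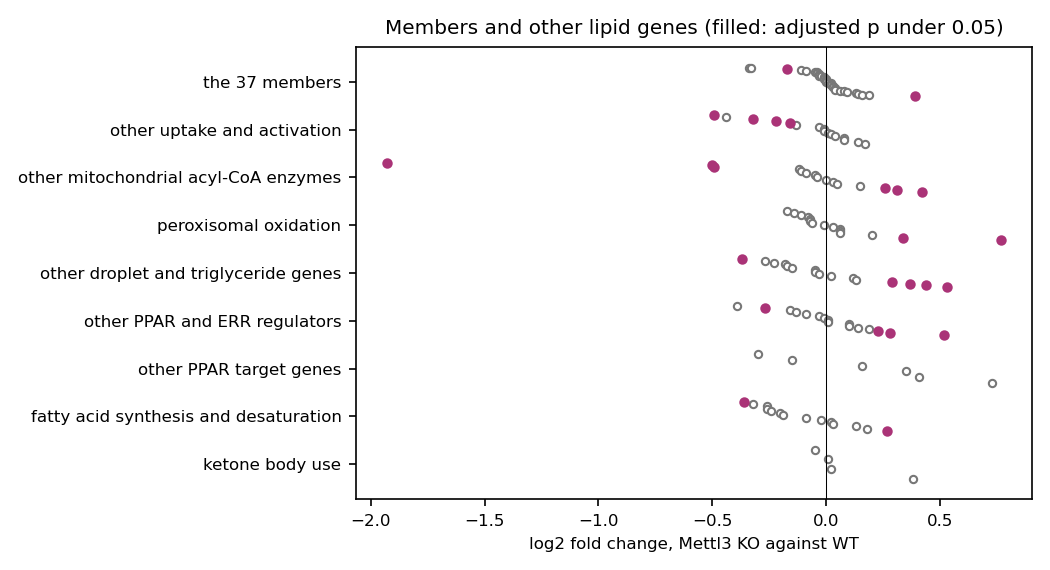
Log2 fold change in Mettl3 KO against WT hearts of the 37 fatty acid genes and of further lipid genes by list, with a point per gene, filled where the limma adjusted p was under 0.05. The 37 genes hold 2 filled points, and among the 22 further genes with filled points (Acsf2 is drawn in 2 lists) Acsm5 at -1.93 lies farthest from 0.

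Of 16 other genes of uptake and activation, 0 were higher and 4 lower. Acsf2, an acyl-CoA synthetase of mitochondria that also stands in the list of mitochondrial enzymes, fell by 0.49 (limma adjusted p = 0.00284). Gpihbp1, which holds lipoprotein lipase on the capillary endothelium, had 113 to 136 in WT and 89 to 105 in Mettl3 KO libraries and fell by 0.32 on the log2 scale (limma adjusted p = 0.0328). Fabp4, a fatty acid binding protein of endothelial and fat cells, fell by 0.22 (limma adjusted p = 0.0363). Endothelial markers as a whole had a median of -0.17 on this scale, with Kdr, a defining gene of these cells, at -0.26, and their part in the results for Gpihbp1 and Fabp4 was not tested. Gpihbp1 was called in 9 and Fabp4 in 11 of 19 alternatives.

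Of 16 other droplet and triglyceride genes, 4 were higher and 1 lower. Agpat2, an acyltransferase of triglyceride synthesis, had 83 to 104 in WT and 136 to 144 in Mettl3 KO libraries and rose by 0.53 (SE 0.09, limma adjusted p = 0.000606). Cidea, a droplet protein, rose by 0.44 (limma adjusted p = 0.0368). The 5 white adipocyte markers also had positive log2 fold changes (0.44 to 1.33), with 0 called. Their part in the result for Cidea was not tested. Plin3, a perilipin of many cell types, fell by 0.37 (limma adjusted p = 0.000921).

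Of 16 other PPAR and ERR regulators, 3 were higher and 1 lower. Esrrb, an estrogen-related receptor, rose from 164 to 187 in WT to 224 to 269 in Mettl3 KO libraries (log2 fold change 0.52, limma adjusted p = 7.58e-05). Perm1, a muscle regulator of PGC-1 and ERR target genes, rose by 0.28 (limma adjusted p = 0.000273), and Rxrg, a retinoid X receptor, fell by 0.27 (limma adjusted p = 0.00977). Of 14 genes of fatty acid synthesis and desaturation, Oxsm, the mitochondrial ketoacyl synthase, rose by 0.27 and Mlxipl, the carbohydrate response element binding protein, fell by 0.36 (limma adjusted p = 0.0382 for each).

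Of 6 other PPAR target genes and 4 genes of ketone body use, 0 were called by limma. In the first group 2, and in the second 1, had an unadjusted p under 0.05. Pdk2, a sister kinase of Pdk4, had 580 to 596 in WT and 498 to 548 in Mettl3 KO libraries without overlap (log2 fold change -0.15, limma adjusted p = 0.0564), and was called in 5 of 19 alternatives, voom on recovered reads among them. Bdh1, the mitochondrial ketone body dehydrogenase, differed by 0.38 (limma adjusted p = 0.164) and was called in 2 of 19.

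Of the 22 lipid genes called beyond the 37, 18 were not called in limma without the trend, which left the fold changes as they were (Abcd2 at 0.77 with an adjusted p of 0.0547, Plin3 at -0.37 with 0.0782 and Perm1 at 0.28 with 0.0915, for example). With the index of atrial markers as covariate, which largely went with the genotype, 13 were not called. Among these the log2 fold change lay farther from 0 than before for Gpihbp1 (-0.47, limma adjusted p = 0.0531), Oxsm (0.41, 0.0529), Amacr (0.44, 0.0886), Mlxipl (-0.44, 0.141), Fabp4 (-0.28, 0.0921) and Esrrg (0.24, 0.0878). It lay closer to 0 for Plin3 (-0.19, limma adjusted p = 0.274), Vldlr (-0.08, 0.576), Acsf2 (-0.38, 0.190), Rxrg (-0.21, 0.272), Agpat2 (0.44, 0.0833), Mmut (0.21, 0.0676) and Cidea (0.40, 0.323). Scaling to cardiomyocyte markers lost 5 of the 22 calls, those of Amacr, Cidea, Esrrg, Mcee and Oxsm. The replicate block lost 4, those of Fabp4, Gpihbp1, Mlxipl and Oxsm. Acad12, Acsm5 and Esrrb were called in 19 of 19 alternatives. With 1 library left out in turn, 15 of the 22 were called each time. Gpihbp1 was called only without WT replicate 2, and its adjusted p was 0.0527 to 0.114 without each of the 7 others. Oxsm was called only without WT replicate 3 (adjusted p 0.0608 to 0.120 without the 7 others). Amacr was called only if WT replicate 4 or Mettl3 KO replicate 3 was left out, and Mlxipl only without replicate 2 of either genotype. Fabp4 was lost without 5 of the 8 libraries (adjusted p 0.0653 to 0.156), as was Cidea (adjusted p 0.0921 to 0.133), and Vldlr, the receptor for very low density lipoprotein, at -0.16 in the full comparison, was lost without 4.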

How the data were processed

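Total RNA of 8 mouse hearts (1 µg) had been sequenced by the authors as stranded single-end reads of 72 bases. Per the methods and the submitters' processing notes, reads were trimmed (Trimmomatic 0.39), aligned to mm39 (STAR 2.7.11a), freed of duplicates (Picard 3.1.1), of reads with several map positions and of ribosomal and mitochondrial reads, and assigned to exons of Ensembl release 109 with featureCounts 2.0.4. Removal of duplicates limits the level that a short, abundant transcript such as Fabp3 can reach. It can also narrow the differences between libraries for abundant genes.

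The deposited values are a score, read counts that the authors normalized with DESeq2 1.36.0 and rounded to whole numbers. They are not raw counts, so that count models were not run, and limma's voom on the recovered reads served as an alternative. Each library's factor (0.927 to 1.11) was recovered from the low values that rounding skipped or doubled and gave the depth. A value of 0 allows up to 3 reads, which covers counting error only, and each of the 37 genes was above this in every library.

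A mean value of 1 or more was required, which kept 20313 of 23045 genes and left out 2732. Their log2(value + 1) entered limma 3.58.1 (R 4.3.3) with a mean-variance trend, two-sided, and Benjamini-Hochberg adjustment over all genes tested at 0.05. Fold changes are on this log2 scale and are slightly too small for low genes. Intervals are 95% limma intervals. The limma fit was tested on simulated data in which every gene had the same dispersion. That test does not cover genes of unequal spread, such as those found here. Replicates are separate hearts. For p-values and intervals limma combined the spread between them with the spread of genes of a similar mean. Without the trend the SE of Lpl went from 0.04 to 0.07 and that of Etfb from 0.15 to 0.08.

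All 37 genes are named. Those called, those without overlap and those called in an alternative have the value of each library. Of the other lists, up to 3 called genes with the largest change and a mean of at least 10 are named. Others were chosen after seeing their values. The 37 genes, the lists and the tests were chosen with earlier results of these data known. Gene lengths and shared exons came from GENCODE M21 (GRCm38), matched by gene identifier for 37 of 37 genes, and promoters from RefSeq, with coordinates of that build used for the promoters only. The 19 alternatives were other pseudocounts, filters and scalings, no trend, voom, the replicate number as a block, atrial markers as covariate and each library left out.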

Additional observations from a re-analysis of the deposited data

Results flagged for a closer look

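In each genotype the highest or lowest library of each of the 37 genes was compared with the others by Dixon's ratio, the gap to the nearest library over the range of the 4. It exceeded the 95% critical value for 4 libraries in 6 of 74 groups, where chance gives 3.70. Cd36 was low in WT library 2 (1632 beside 1759 to 1780, ratio 0.858) and in Mettl3 KO library 4 (1593 beside 1757 to 1785, ratio 0.854). Cpt1a was low in Mettl3 KO library 1 (269 beside 343 to 352, ratio 0.892). Acadl was high in WT library 4 (1317 beside 1171 to 1195, ratio 0.836). Acadm was high in the same WT library (1026 beside 919 to 923, ratio 0.963) and low in Mettl3 KO library 4 (923 beside 976 to 986, ratio 0.841). None of these genes was called between the genotypes in the full comparison.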

How the results depend on the processing

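Over 19 alternatives and 37 genes, 696 of 703 values kept their side of the threshold and 0 called values changed sign, while 47 uncalled values did. Mlycd remained the 1 gene called higher. The count of genes called lower was 0 in limma without the trend (Lpl adjusted p = 0.295) and 0 to 1 with a library left out, being 0 without WT replicate 1 or 4 or Mettl3 KO replicate 2 or 4. With atrial markers as covariate the gene called lower was Cpt1a in place of Lpl. The cause was not tested. The median over the 37 genes was -0.05 to 0.05. Same-numbered libraries of the genotypes shared only a number, with correlations of their deviations of -0.02 to 0.07 beside -0.15 to 0.14 for other pairs. With the replicate block, 1 gene was called higher and 1 lower (Lpl -0.17, limma adjusted p = 0.0352), and 1346 of all genes were called. Over all genes the count of 1607 became 321 without the trend, 932 with the atrial covariate and 1019 without Mettl3 KO replicate 3. Scaling to cardiomyocyte markers turned the 958 higher and 649 lower calls into 530 and 677. The 95% intervals of Angptl4, Acot1 and Etfb reached beyond 1.5-fold.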
